A study of Mus musculus with 6 samples.

Results

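A set of 6 collagen genes, among 18193 genes with a probe set of their own, was followed in sorted mouse retinal cells: Col25a1, Col23a1 and Col13a1, whose proteins span the cell membrane, and Col24a1, Col9a1 and Col22a1, whose proteins are secreted. They were found on the arrays as every probe set, the group of short probes that reads 1 transcript, that the platform annotation assigns to 1 of these genes and to no other. This gave 12 probe sets, of 45037 tested: 3 for Col23a1, 3 for Col22a1, 2 for Col25a1, 2 for Col9a1, 1 for Col24a1 and 1 for Col13a1. The genes were picked with the differences between the groups of cells already known. Their values between groups are therefore a description, without a p-value, and support nothing further.

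Affymetrix arrays were hybridised with RNA from cells of C57BL/6 retina at postnatal day 6, with 2 arrays in each of 3 groups. The Hb9 group holds cells positive for GFP and for Thy1, labelled as Hb9 retinal ganglion cells. The Drd4 group holds GFP-positive and Thy1-positive cells labelled as Drd4 retinal ganglion cells. The Thy1 group was sorted on Thy1 alone, which ganglion cells in general carry on their surface, and no transgene is named for it. All groups share the papain dissociation, the sort and 2 rounds of RNA amplification, and both arrays of a group came from different litters per the series text. The GFP in each line is driven by regulatory sequence of the gene that names it, and both lines are known for marking ganglion cells that prefer 1 direction of motion. The sources used here do not say how many animals entered a sort or whether the Thy1 sort left out direction-selective cells.

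Collagens are built from chains with long runs of Gly-X-Y repeats that wind into triple helices. Transmembrane collagens keep a short end inside the cell and can release their outer part when proprotein convertases such as furin cut them. In the nervous system of mice, collagen XXV is made by motor neurons and is needed for their axons to grow into muscle, and receptor tyrosine phosphatases of the Ptprd and Ptprs kind are known as its binding partners. Collagen XIII sits at the neuromuscular junction. Secreted members of the family form fibrils, as collagen XXIV does, or lie on fibrils made by others, as collagens IX and XXII do, which are called FACIT collagens.

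Promoter windows, from 250 bases before to 50 after the annotated start, are shown for Col25a1 and Col24a1, since these are the genes with the widest differences between groups. Both lie on the forward strand of chromosome 3 in the mouse build GRCm38.p6, and the sequences are RefSeq's. The Col25a1 window is chr3:130180595-130180894 and the Col24a1 window is chr3:145292222-145292521. Capitals mark matches to motifs that were chosen after the sequences were read. In Col25a1 these are ATGCTAAT, a run of the kind that POU homeodomain proteins bind, and the octamer ATTTGCAT, the classical POU site. In Col24a1 it is TGACGTCA, the cyclic AMP response element.
Col25a1: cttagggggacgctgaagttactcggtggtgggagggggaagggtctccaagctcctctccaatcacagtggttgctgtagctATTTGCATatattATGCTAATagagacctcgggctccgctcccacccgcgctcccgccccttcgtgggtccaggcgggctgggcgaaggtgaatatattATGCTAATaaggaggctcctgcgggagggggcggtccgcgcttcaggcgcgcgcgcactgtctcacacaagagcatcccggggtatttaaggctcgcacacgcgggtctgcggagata
Col24a1: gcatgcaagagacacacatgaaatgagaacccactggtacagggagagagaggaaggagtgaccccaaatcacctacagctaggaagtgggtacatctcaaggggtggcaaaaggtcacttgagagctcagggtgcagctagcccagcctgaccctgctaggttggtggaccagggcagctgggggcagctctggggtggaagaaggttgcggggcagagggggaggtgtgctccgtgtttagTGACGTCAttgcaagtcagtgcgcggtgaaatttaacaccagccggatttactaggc
In Col25a1, ATGCTAAT occurs at 154 and at 68 bases before the start, within a run of 16 bases that is repeated exactly. The octamer ATTTGCAT stands once, at 167 bases before the start. Searched on both strands, ATGCTAAT is in 0.919% of 32851 promoter windows of the same length, with 4 holding it more than once. The octamer is in 1.74% of them and TGACGTCA in 1.79%. The 3 motifs do not overlap in these windows. The matches are letters in a window and were not tested as sites.

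The arrays were alike in scale, with median intensities between 45.5 and 47.7. As a background reference, the brightest of 27 control probe sets for Bacillus genes was taken on each array. These were treated as unspiked because of their low values, and the brightest lay between 4.95 and 5.38 on the log2 scale. Between 53.8% and 68.3% of probe sets per array exceeded it. Across probe sets, which are not independent replicates, the 2 arrays of a group correlated at 0.987 (Drd4) to 0.991 (Hb9). Of 14 measured ganglion cell markers, 13 or 14 lay above the reference on each array. Their summed intensity ran from 36365 to 36973 in Hb9, from 33527 to 34805 in Drd4 and from 33414 to 33624 in Thy1. Single markers differed within these sums. Against Thy1, 1 was higher (Nefm) and 1 lower (Slc17a6) in Hb9. In Drd4, 2 were higher (Nefm and Thy1) and 2 lower (Ebf1 and Isl1). Between the lines, 3 were higher in Hb9 (Ebf1, Isl1 and Rbpms) and 2 lower (Pou4f3 and Slc17a6). With the brightest probe set of each gene, 0 were lower in Hb9 than in Thy1. The Nefm call in Hb9 ended when any 1 array of Hb9 or Thy1 was left out. Of 11 photoreceptor markers, 5 to 8 lay above the reference, with a summed intensity of 426 to 469 over all arrays. Of these 11, 0 were past the adjusted threshold of limma in any comparison (1, 1 and 0 at an unadjusted p of 0.05). Of 8 markers of ON-OFF direction-selective cells, 5 were higher and 1 lower in Hb9 than in Thy1, and 4 higher and 1 lower in Drd4. The lower gene was Trhr in Hb9 and Calb1 in Drd4, and each was among the genes higher in the other line. Both lower calls ended without Thy1 replicate 1. The Trhr call in Hb9 also ended without Hb9 replicate 1 or Thy1 replicate 2, or with an offset of 16 before log2. Errors below are SD for levels and limma standard errors for log2 differences, with n = 2 arrays in each group throughout.

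Of the 12 collagen probe sets, 4 lay above the background reference on all 6 arrays, 3 on none and 5 on some. A level of 1 probe set is not set against that of another, because probes differ in brightness. The spread of the 3 group means exceeded the widest gap between replicate arrays for 6 probe sets. The share of all probe sets that do so was not counted, so nothing is read from this number. The widest spreads of group means were those of Col25a1 1438540_at, with 4.03 on the log2 scale, and Col24a1 1453418_at, with 3.05. For the other 10 probe sets the group means spanned 0.04 to 0.85.

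**Figure D1:**
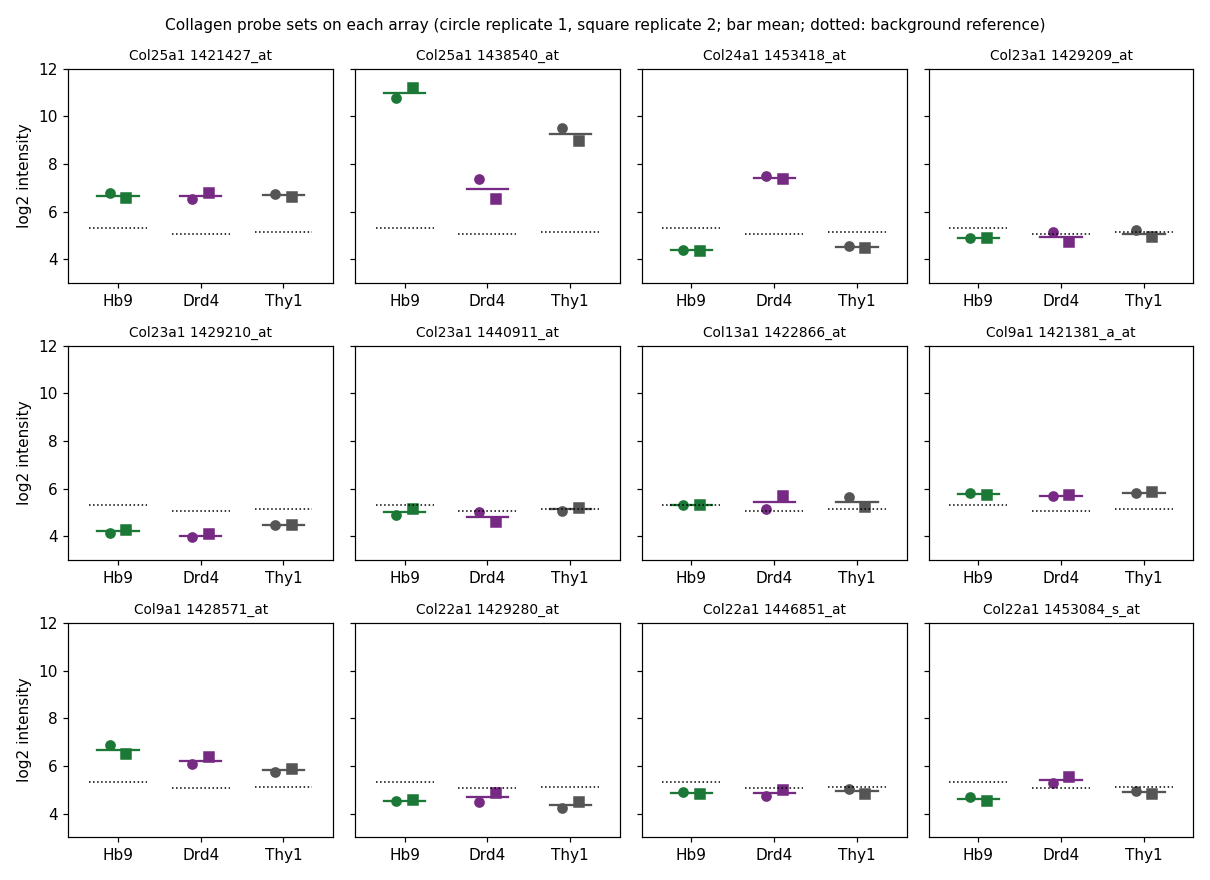
Log2 intensity of each collagen probe set on each array, with Hb9, Drd4 and Thy1 from left to right, circles for replicate 1, squares for replicate 2, bars for group means and dotted lines for the background reference of the group. Col25a1 1438540_at has group means of 10.96, 6.93 and 9.24, and Col24a1 1453418_at stands above the dotted line in Drd4 only.

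Col25a1 encodes collagen XXV, a transmembrane collagen of neurons whose shed form is also found in amyloid plaques. Its probe set 1438540_at read 1729 and 2301 on the Hb9 arrays. It read 164 and 90.9 on the Drd4 arrays, against 728 and 501 on the Thy1 arrays. The groups did not overlap, so Hb9 was highest, Thy1 lay between and Drd4 was lowest.

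On the log2 scale this probe set averaged 10.96 ± 0.29 in Hb9 and 6.93 ± 0.60 in Drd4, against 9.24 ± 0.38 in Thy1. Hb9 minus Thy1 was 1.72 ± 0.28, or 3.30-fold. Drd4 minus Thy1 was -2.30 ± 0.28, or 4.94-fold lower in Drd4. Between the lines, Hb9 minus Drd4 was 4.03 ± 0.28, which is 16.3-fold. All 6 arrays were above the background reference, so these folds are measured on both sides. The Drd4 arrays differed from each other by 0.86 on the log2 scale, the widest gap between replicates among the 12 probe sets. In bulk RNA of sorted cells, fewer expressing cells and less RNA per cell cannot be told apart.

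The other Col25a1 probe set, 1421427_at, gave a different picture. It read 109 and 95.6 in Hb9 and 92.2 and 108 in Drd4, against 108 and 98.0 in Thy1. All groups overlapped on it, and the group means of 6.67, 6.64 and 6.68 spanned 0.04 on the log2 scale. The log2 differences were -0.01 ± 0.16 for Hb9 minus Thy1, -0.04 ± 0.16 for Drd4 minus Thy1 and 0.03 ± 0.16 for Hb9 minus Drd4. It was above the background reference on all 6 arrays. The platform annotation ties it to a RefSeq mRNA of Col25a1, and ties 1438540_at to another GenBank entry. The sources used here do not say which part of the transcript either probe set reads, and the reason for the disagreement was not tested.

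Col24a1 encodes a fibrillar collagen known from developing bone and cornea of mice. Its probe set 1453418_at read 21.0 and 20.3 in Hb9 and 178 and 164 in Drd4, against 23.3 and 22.2 in Thy1. The Drd4 arrays stood far above the other 4, and Drd4 was the group with values above the background reference. Its log2 level was 4.37 ± 0.038 in Hb9 and 7.42 ± 0.085 in Drd4, against 4.51 ± 0.051 in Thy1.

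Because the Hb9 and Thy1 arrays lay below the reference, only bounds can be given for the fold. Col24a1 was at least 4.87-fold higher in Drd4 than in Thy1, with a fitted difference of 2.91 ± 0.14. It was at least 4.29-fold lower in Hb9 than in Drd4, with a fitted difference of -3.05 ± 0.14. Hb9 and Thy1 could not be ordered, as both were below the reference. The replicate gap of this probe set was at most 0.12 on the log2 scale.

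Col9a1 encodes the alpha-1 chain of collagen IX, which is known from cartilage and the vitreous of the eye and assembles with the chains of Col9a2 and Col9a3. Its probe set 1428571_at read 116 and 89.6 in Hb9 and 67.1 and 82.1 in Drd4, against 54.2 and 58.9 in Thy1. No groups overlapped, with Hb9 highest, Drd4 between and Thy1 lowest. Hb9 minus Thy1 was 0.85 ± 0.18 on the log2 scale (1.80-fold), Drd4 minus Thy1 was 0.39 ± 0.18 and Hb9 minus Drd4 was 0.46 ± 0.18. The differences between neighbouring groups, 0.39 and 0.46, were close in size to the widest replicate gap of 0.37.

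The other Col9a1 probe set, 1421381_a_at, read 56.2 and 53.0 in Hb9 and 51.5 and 52.7 in Drd4, against 55.7 and 58.0 in Thy1. Its group means of 5.77, 5.70 and 5.83 spanned 0.13 on the log2 scale. The pair of Col9a1 probe sets therefore differed, as the pair for Col25a1 did, while both lay above the reference on all 6 arrays. RefSeq lists 2 promoter windows for Col9a1, and the probe sets were not matched to either.

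Col22a1 encodes a FACIT collagen of myotendinous junctions. Its probe set 1453084_s_at read 25.7 and 23.1 in Hb9 and 38.5 and 46.1 in Drd4, against 30.8 and 28.4 in Thy1. Both Drd4 arrays were above the background reference and the other 4 were below it. The bounds were at least 1.20-fold for higher in Drd4 than in Thy1, and at least 1.06-fold for lower in Hb9 than in Drd4. The remaining Col22a1 probe sets, 1429280_at and 1446851_at, were below the reference on every array, with log2 levels from 4.25 to 5.04.

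Col23a1, which encodes a transmembrane collagen that is also shed, was dim on all of its probe sets. Probe set 1429210_at was below the reference on all 6 arrays. Probe sets 1429209_at and 1440911_at each exceeded it on 2 arrays, 1 of Drd4 and 1 of Thy1. Over these 3 probe sets, the log2 level ran from 3.96 to 5.21, so no fold is given.

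Col13a1 encodes collagen XIII, the transmembrane collagen of the neuromuscular junction. Probe set 1422866_at read 39.6 and 39.9 in Hb9 and 35.7 and 52.0 in Drd4, against 50.8 and 37.4 in Thy1. It was above the reference on 5 of 6 arrays, and the groups overlapped. The log2 differences were -0.13 ± 0.20 for Hb9 minus Thy1, -0.02 ± 0.20 for Drd4 minus Thy1 and -0.12 ± 0.20 for Hb9 minus Drd4.

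**Figure D2:**
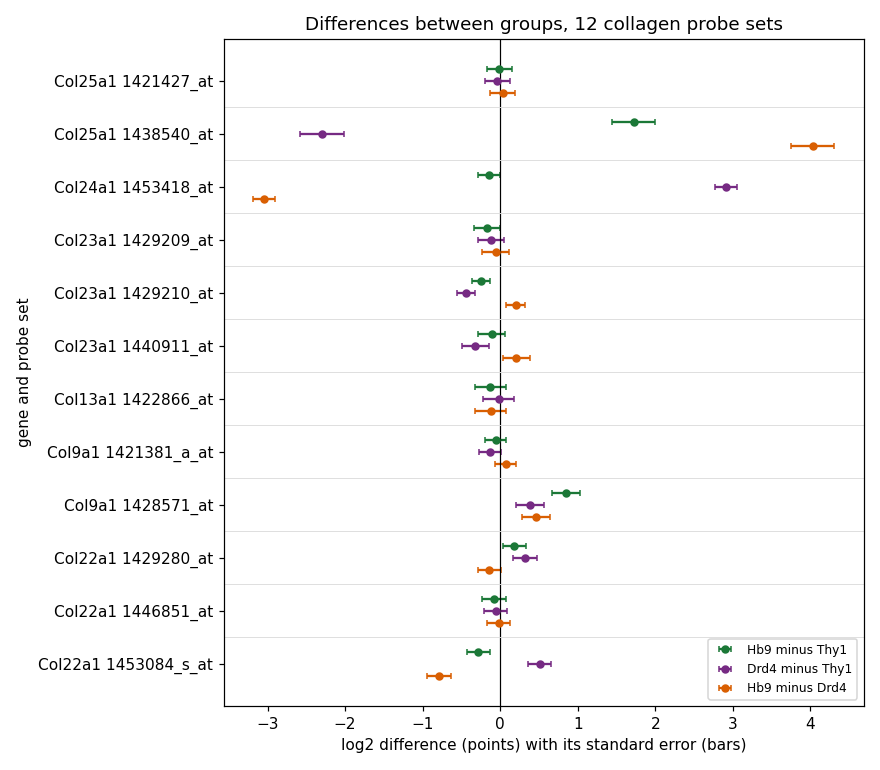
Log2 differences (points) with standard errors (bars) for the 12 collagen probe sets, as Hb9 minus Thy1, Drd4 minus Thy1 and Hb9 minus Drd4 from top to bottom within each probe set. Col25a1 1438540_at lies at 1.72, -2.30 and 4.03 and Col24a1 1453418_at at -0.14, 2.91 and -3.05, while 1421427_at of Col25a1 lies within 0.04 of 0.

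In Hb9 against Thy1, 2 of the 12 probe sets passed an adjusted p of 0.05 in limma, both higher in Hb9, beside 6.03% of all probe sets (2.49% higher and 3.54% lower). In Drd4 against Thy1, 2 passed, 1 higher and 1 lower, beside 3.77% (1.23% higher and 2.54% lower). In Hb9 against Drd4, 3 passed, 1 higher and 2 lower, beside 6.49% (3.12% higher and 3.37% lower). Nothing is read from these counts, because the genes were picked on these comparisons. The groups did not overlap for 7 of 12 in Hb9 against Thy1, beside 51.3% of all probe sets. The counts were 8 beside 39.8% in Drd4 against Thy1, and 6 beside 48.5% in Hb9 against Drd4. The median log2 difference of the 12 was -0.094, -0.052 and 0.007 in that order of comparisons, beside 0.009, 0.023 and -0.003 over all probe sets. The Thy1 arrays enter both comparisons that involve that group.

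Genes with a profile close to the brightest Col25a1 and Col24a1 probe sets were ranked by root mean square distance between log2 profiles centred over the 6 arrays. The search covered probe sets that map to 1 gene and kept the nearest of each gene. Genes with clone, model or accession-like names were passed over. The 5 nearest to Col25a1 1438540_at were Cxcr4 (distance 0.47), Gpc6 (0.55), Cdh10 (0.56), Nr2f2 (0.58) and Pcdh11x (0.58). Their Pearson r with Col25a1 over the 6 arrays ran from 0.948 to 0.992, and all points share the same 3 groups. Because the genes were picked for close profiles, a high r follows from the choice and is a description. Cxcr4, a chemokine receptor, differed by 0.71 as Hb9 minus Thy1 and by -2.85 as Drd4 minus Thy1. Gpc6, a glypican, differed by 1.46 and -1.35 in the same comparisons, and had the highest r of these 5 (0.992). Cxcr4 was below the background reference on both Drd4 arrays, at 4.39 and 3.91. The size of its step in Drd4 is therefore bounded, not measured, and its distance and rank hold for the deposited values alone.

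The 5 nearest to Col24a1 had distances of 0.11 for Kctd4, 0.13 for Oxtr, 0.22 for Ndrg1, 0.22 for Mmp17 and 0.24 for Kcna5. Their r with Col24a1 ran from 0.986 to 0.997 over the 6 arrays, which again follows from the choice by distance. Col24a1 was below the background reference on 4 of the 6 arrays, so the size of its step is bounded, not measured, and these distances and their order hold for the deposited values alone. Mmp17, a membrane-bound metalloproteinase gene used as a marker of Drd4 cells, had log2 levels of 6.93 and 6.66 in Hb9 and 9.64 and 9.79 in Drd4, against 6.39 and 6.72 in Thy1. Oxtr, the oxytocin receptor gene, had 5.42 and 5.59 in Hb9 and 8.87 and 8.68 in Drd4, against 5.98 and 5.82 in Thy1.

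**Figure D3:**
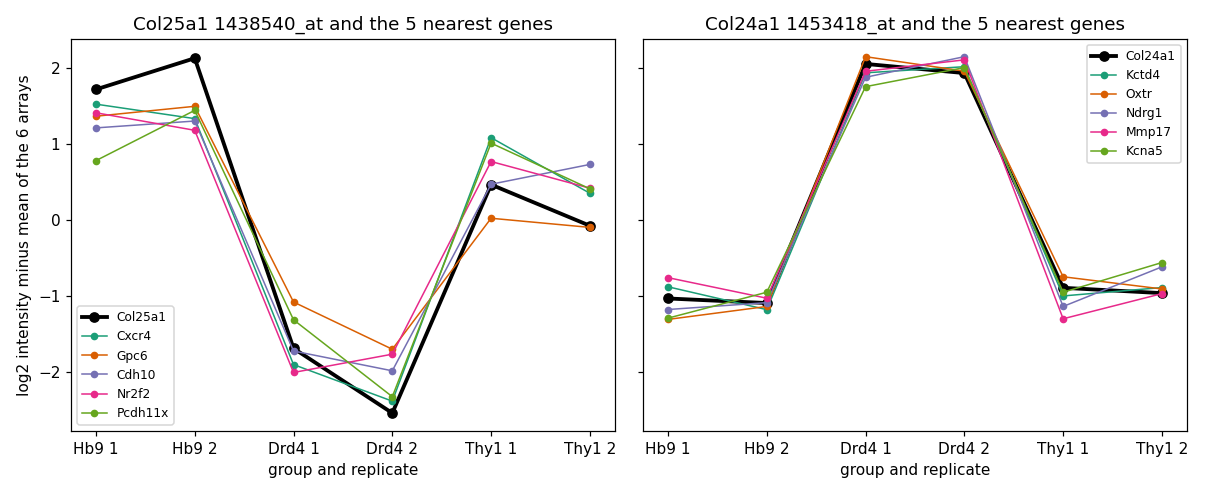
Log2 intensity minus the mean of the 6 arrays, for Col25a1 1438540_at (left) and Col24a1 1453418_at (right) in black with their 5 nearest genes in colour, over the Hb9, Drd4 and Thy1 arrays. The Col24a1 lines lie at distances of 0.11 to 0.24 from the black line, and the Col25a1 lines at 0.47 to 0.58.

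The remaining chains of collagen IX were taken from a list of 8 other FACIT and related collagens, of which 7 were measured. Col9a3 was the list gene that passed in Hb9, and 0 of 7 passed in Drd4 against Thy1 (limma, 2 of 7 at an unadjusted p of 0.05). By direction, 4.74% of all genes had at least 1 probe set higher in Hb9 than in Thy1 and 6.23% lower. For Drd4 against Thy1 these shares were 1.71% and 4.29%, and for Hb9 against Drd4 they were 5.47% and 5.29%. Col9a3 1460693_a_at had log2 levels of 5.88 and 5.74 in Hb9 and 4.99 and 4.95 in Drd4, against 4.67 and 4.98 in Thy1. The Hb9 arrays stood above all others. Both Thy1 arrays were below the reference, so Hb9 was at least 1.60-fold higher (fitted difference 0.99 ± 0.15, adjusted p = 0.00466), and it was higher than Drd4 by 0.84 ± 0.15 (adjusted p = 0.00833). Of the other Col9a3 probe sets, 1460734_at differed by 0.28 and 1420280_x_at by 0.33 as Hb9 minus Thy1, and neither passed. Leaving out Hb9 replicate 1 ended the Hb9 minus Drd4 call (adjusted p = 0.0805). Col9a2, the alpha-2 chain, was at or below the reference on 5 of 6 arrays and did not pass (-0.19 and -0.10 against Thy1 in Hb9 and Drd4). Col19a1, a collagen made by neurons in mouse brain, was dim on its 3 probe sets and passed in no comparison. With the brightest probe set of each gene, the list's median log2 difference was -0.08 in Hb9 and -0.06 in Drd4 against Thy1. Over all probe sets, dim ones and those of no named gene included, the medians were 0.009 and 0.023, which is not a like measure.

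Among 8 measured genes of other membrane-bound collagens and collagenous proteins, 1 passed as lower in each comparison with Thy1, and 0 in Hb9 against Drd4 (limma, 2 at an unadjusted p of 0.05). It was Colec12, a scavenger receptor gene, at -0.63 ± 0.12 in Hb9 (adjusted p = 0.0115) and -0.58 ± 0.12 in Drd4 (adjusted p = 0.0179). All groups were below the background reference, so the direction holds for the deposited values alone and no fold is given. The Colec12 calls were lost without Thy1 replicate 1 (adjusted p = 0.0816 in Hb9 and 0.109 in Drd4). They were also lost without Hb9 replicate 1 (0.104 in Hb9), Drd4 replicate 2 (0.107 in Drd4) and Thy1 replicate 2 (0.1 in Drd4). Col17a1, a transmembrane collagen of epithelial hemidesmosomes, was below the reference on all 6 arrays.

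The collagens of connective tissue and basement membranes were described by the same counts. Of 10 other fibrillar collagens, 4 fell and 1 rose in Hb9 against Thy1, and 4 fell and 0 rose in Drd4. Col3a1, Col1a2, Col5a1 and Col5a2 fell in both comparisons, which share the Thy1 arrays. Col3a1 1427883_a_at, a fibril collagen of vessel walls, had log2 levels of 5.41 and 5.08 in Hb9 and 5.38 and 4.22 in Drd4, against 8.39 and 8.93 in Thy1. The Thy1 arrays stood far above the others, with differences of -3.41 ± 0.32 (adjusted p = 0.000346) in Hb9 and -3.86 ± 0.32 (adjusted p = 0.000109) in Drd4. Col1a2 was lower by at least 2.05-fold in Hb9 and at least 2.44-fold in Drd4. Col5a2 fell by 1.86 on the log2 scale in Drd4 (adjusted p = 0.000229) and was higher in Hb9 than in Drd4 by at least 2.12-fold on its probe set 1450625_at. The fibrillar gene higher in Hb9 was Col11a1, on a probe set below the reference in all groups. Its direction therefore holds for the deposited values alone, and no fold is given. Without Hb9 replicate 2 or Thy1 replicate 2, 2 fibrillar genes fell in Hb9. With the brightest probe set of each gene, the list's median log2 difference was -0.30 in Hb9 and -0.21 in Drd4 against Thy1.

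Of 18 measured network, beaded and multiplexin collagens, 3 fell in each comparison with Thy1 and 1, Col6a1, rose in Drd4, a call that ended without Hb9 replicate 1, Hb9 replicate 2, Drd4 replicate 2, Thy1 replicate 1 or Thy1 replicate 2, or with only Drd4 and Thy1 in the model. Col4a1, a basement membrane chain, read 7.70 and 7.48 in Hb9 and 7.71 and 7.52 in Drd4, against 10.11 and 10.20 in Thy1 on the log2 scale. It fell by 2.57 in Hb9 (adjusted p = 4.45e-05) and by 2.54 in Drd4 (adjusted p = 2.11e-05), and Col4a2 fell by 1.73 and 1.55. Col6a3 fell by 1.16 in Hb9 and by 1.33 in Drd4. Its Hb9 call ended without Hb9 replicate 1 (adjusted p = 0.0975), Hb9 replicate 2 (0.0815) and Thy1 replicate 2 (0.0555). Col6a1 was lower in Hb9 than in Drd4 by 0.70 ± 0.15 (adjusted p = 0.0238), a call lost without any single Hb9 or Drd4 array (adjusted p = 0.0584 to 0.139).

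Several markers of other cells differed from Thy1 in the direction of these matrix collagens, and some did not. Of 14 vessel wall markers, 6 fell in Hb9 and 8 in Drd4 against Thy1, and their summed intensity ran from 1807 to 2222 in Hb9 and from 505 to 1391 in Drd4, against 8204 to 9304 in Thy1. Of 10 fibroblast markers, 3 fell and 0 rose in Hb9, and 4 fell and 1, Fmod, rose in Drd4 on 1 of its 6 probe sets, with sums of 372 to 400 in Hb9 and 319 to 378 in Drd4, against 786 to 816 in Thy1. Of 13 microglial markers, 11 fell in Hb9 and 10 in Drd4, with sums of 1746 to 2090 in Hb9 and 1106 to 3068 in Drd4, against 6733 to 11825 in Thy1. Of 11 markers of Muller glia and progenitors, 3 fell and 1 rose in Hb9, and 2 fell and 1 rose in Drd4, with Apoe at -2.56 in Hb9 and -3.01 in Drd4. Their sums were 2467 to 2621 in Hb9 and 2685 to 3130 in Drd4, against 3694 to 3799 in Thy1. Of 6 horizontal cell markers, 1 fell in Hb9 and 2 in Drd4. They summed to 1010 to 1055 in Hb9 and 992 to 1110 in Drd4, against 1146 to 1529 in Thy1. Of 11 amacrine cell markers, 1, Pax6, rose and 0 fell in each line. These summed to 1955 to 2206 in Hb9 and 2082 to 2350 in Drd4, against 1355 to 1648 in Thy1. The Pax6 call in Hb9 ended under quantile normalisation, moderation without the trend or the replicate number as a block. It also ended without Hb9 replicate 1, Hb9 replicate 2 or Thy1 replicate 1. In Drd4 the Pax6 call on 1452526_a_at ended without Drd4 replicate 2 or Thy1 replicate 1. Of 5 astrocyte and 6 bipolar cell markers, 0 passed against Thy1 in limma. At an unadjusted p of 0.05, 0 and 3 astrocyte and 1 and 2 bipolar markers passed in Hb9 and Drd4. On the Hb9 arrays 7 to 8 vessel wall, 3 fibroblast and 9 to 10 microglial markers lay above the reference. On the Drd4 arrays these were 4 to 8, 3 to 6 and 8 to 12, against 9, 7 to 8 and 12 on the Thy1 arrays. In Hb9 against Drd4, 0 of 13 microglial markers passed in limma (1 at an unadjusted p of 0.05), and 2 of 14 vessel wall markers, Rgs5 and Cspg4, were higher in Hb9. The fibroblast marker Postn was higher in Hb9 than in Drd4, and Fmod was lower. Microglial markers past the threshold numbered 5 in Hb9 and 6 in Drd4 without Thy1 replicate 1, and 6 in Hb9 without Hb9 replicate 1. In Hb9 against Drd4, vessel wall markers past it numbered 0 without Hb9 replicate 1, 1 without Hb9 replicate 2 or Drd4 replicate 2 and 4 without Drd4 replicate 1, where 2 microglial markers passed. No probe set of any kind was at 0 on any array, with a lowest intensity of 5.54 on Drd4 replicate 1. A marker value above 0 therefore does not show that the marker was expressed. The part of these markers in the collagen differences was not tested.

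**Figure D4:**
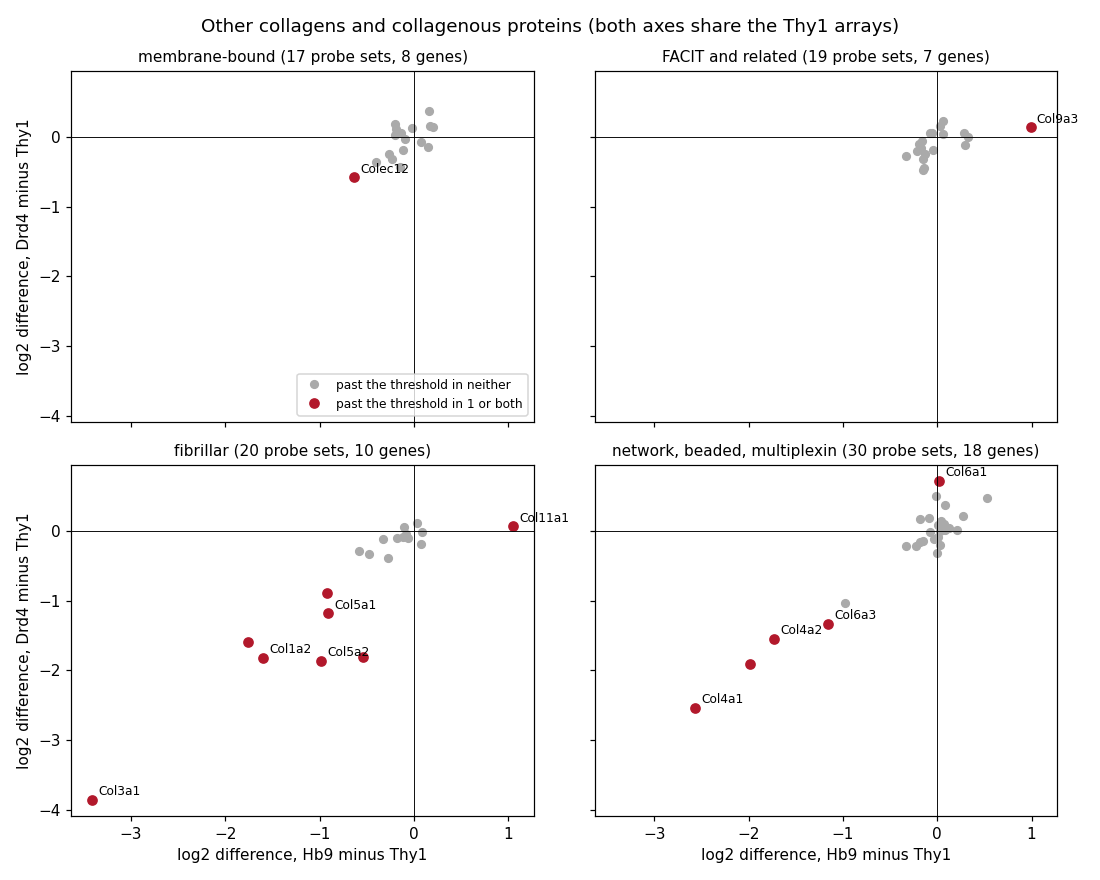
Log2 difference of Drd4 minus Thy1 (vertical) against Hb9 minus Thy1 (horizontal) for each probe set of 4 lists of other collagens, red where an adjusted p passed 0.05 in at least 1 of these comparisons, with each gene named at its most changed probe set. Col3a1 and Col4a1 lie farthest down both axes, and Col9a3 lies at 0.99 on the horizontal axis.

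Of 14 measured collagen receptors, 1 rose and 3 fell in each comparison with Thy1, and 2 were higher and 1 lower in Hb9 against Drd4. Ptprd, a partner of collagen XXV, had 3 of 7 probe sets higher in Drd4 than in Thy1, including 1429052_at at 12.04 and 11.96 in Drd4 against 11.35 and 11.39 in Thy1 (0.63 on the log2 scale, adjusted p = 0.00829). Ptprd 1443860_at was at least 1.57-fold lower in Hb9 than in Drd4 (adjusted p = 0.000717). Ptprd differed by 0.15 on 1429052_at as Hb9 minus Thy1, and no probe set of it passed there. Ptprs, another partner, read 10.88 and 10.70 in Hb9 and 10.94 and 10.77 in Drd4, against 10.67 and 10.46 in Thy1 on 1426794_at, and passed in no comparison.

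Adgrg6, an adhesion receptor known to bind collagen IV, was at least 3.34-fold higher in Hb9 than in Thy1 on 1437409_s_at (adjusted p = 0.00096). Its log2 levels there were 6.73 and 7.02 in Hb9 and 4.63 and 5.55 in Drd4, against 4.32 and 4.76 in Thy1. The Hb9 arrays stood above all others on this probe set, with Hb9 minus Drd4 at 1.78 ± 0.27 (adjusted p = 0.00307). The other Adgrg6 probe set, 1437408_at, is the brighter, and its differences were smaller. With the brightest probe set of each gene, no receptor was higher in Hb9 by more than 1.08 against Thy1 or 0.98 against Drd4. These are the largest values over all 14 receptors, and 0.98 is the difference of Itga1, not of Adgrg6. Itga1, a collagen-binding integrin chain, fell by 1.70 in Hb9 and fell by 2.68 in Drd4 (adjusted p = 0.00166 and 9.11e-05), Lair1 was at least 2.20-fold lower in Hb9 and fell by 1.41 in Drd4, and Ddr2 was at least 1.65-fold lower in Drd4. The Itga1 difference between the lines (0.98 ± 0.22 as Hb9 minus Drd4, adjusted p = 0.0235) was lost without Hb9 replicate 1 (0.133), Hb9 replicate 2 (0.106) and Drd4 replicate 2 (0.104). The Lair1 call ended in Hb9 without Hb9 replicate 1 (adjusted p = 0.07), and in Drd4 without Drd4 replicate 2 (0.0902) and Thy1 replicate 1 (0.0628). These falls of Itga1, Lair1 and Ddr2 stand beside the lower vessel wall, fibroblast and microglial markers given above, whose part was not tested.

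Of 10 measured convertases and sheddases, which can release outer parts of membrane proteins, 3 fell and 0 rose in Hb9 against Thy1, 1 fell in Drd4, and 3 were lower in Hb9 than in Drd4. Furin itself read 6.59 and 6.84 in Hb9 and 6.82 and 6.65 in Drd4, against 6.90 and 6.55 in Thy1 on the log2 scale, with all groups overlapping. Bace1, known as the beta-secretase, read 8.93 and 9.04 in Hb9 and 10.29 and 10.01 in Drd4, against 9.97 and 9.69 in Thy1 on 1455826_a_at. It was lower in Hb9 than in Drd4 by 1.16 ± 0.16 (adjusted p = 0.00161) and than in Thy1 by 0.84 ± 0.16 (adjusted p = 0.0121). The call against Thy1 was lost without Hb9 replicate 1 (0.11), Hb9 replicate 2 (0.0583) and Thy1 replicate 1 (0.0965), and leaving out any of these left 1 gene of the list lower in Hb9. Adam17 fell in Hb9 (-1.26 ± 0.18, adjusted p = 0.00273 on 1421859_at) and in Drd4 (-1.41 ± 0.22, adjusted p = 0.00499 on 1421858_at). These are different probe sets: on 1421859_at, the brighter, Drd4 minus Thy1 was -0.58 and did not pass (adjusted p = 0.132), so 0 genes of the list passed there with the brightest probe set of each gene. Its difference between the lines was lost in 10 of 16 alternatives, with an adjusted p of up to 0.334. Adam10 was lower in Hb9 than in Drd4 by 0.94 (adjusted p = 0.00799, and 0.0906 without Hb9 replicate 1) and than in Thy1 by 0.74 (adjusted p = 0.0285, and 0.216, 0.0829 and 0.212 without Hb9 replicate 1, Hb9 replicate 2 and Thy1 replicate 1). Without Hb9 replicate 1, 1 gene of the list was lower in Hb9 than in Drd4.

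Genes that modify and fold collagen chains mostly did not pass. Of 21 measured, 2 fell and 0 rose in Hb9, 1 fell and 0 rose in Drd4 against Thy1, and 1 was lower in Hb9 than in Drd4. Serpinh1, the collagen chaperone Hsp47, fell by 1.53 in Hb9 and was at least 3.20-fold lower in Drd4, where both arrays were below the reference, on 1450843_a_at (adjusted p = 0.0146 and 0.000935). The Hb9 call was lost on that probe set without Hb9 replicate 2 (0.102) and Thy1 replicate 2 (0.0537). Mia3, which helps export large collagens from the endoplasmic reticulum, was lower in Hb9 on 1 of its 4 probe sets, at least 2.33-fold against Thy1 (adjusted p = 0.0065) and at least 2.65-fold against Drd4 (adjusted p = 0.00265). Against Thy1 the call ended without Hb9 replicate 1 (0.0677). Of 12 measured genes of processing outside the cell, Sparc fell in Hb9 and Sparc and Pcolce (on 1 of its 2 probe sets) fell in Drd4 against Thy1, and 0 passed in limma between the lines (2 at an unadjusted p of 0.05). Sparc 1448392_at fell by 2.55 in Hb9 and by 2.90 in Drd4, with an adjusted p of 0.0867 and 0.0928 under robust moderation. In Hb9 its adjusted p was 0.0768 without Hb9 replicate 1 and 0.0713 without Thy1 replicate 1. Serpinh1, Sparc and Pcolce, too, stand beside the lower vessel wall and fibroblast markers, whose part was not tested. Taking the brightest probe set of each gene, the median log2 differences in Hb9 and Drd4 against Thy1 were -0.20 and -0.22 for the membrane-bound list and -0.04 and 0.01 for the network list. They were -0.04 and -0.08 for receptors, -0.21 and -0.04 for convertases and sheddases, -0.02 and -0.06 for modification genes and -0.06 and -0.12 for processing genes.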

How the data were processed

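Per the labels, RNA of sorted retinal cells was amplified in 2 rounds, labelled with biotin and hybridised to Affymetrix arrays. The authors deposited 1 intensity per probe set and array, in linear units. How they corrected background, summarised probes and normalised arrays is not stated in what was used here. Of 45101 probe sets, 64 controls were left out, 34945 map to 1 gene, 932 to several and 9160 to none named, and 34741 matched RefSeq by Entrez identifier.

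Intensities were taken to log2. A mean per group was fitted to the 45037 probe sets with limma 3.58.1 in R 4.3.3, with 3 residual degrees of freedom and an intensity trend. Tests were two-sided and adjusted by Benjamini-Hochberg over all probe sets, at 0.05. A list gene counts where at least 1 probe set passes. With 2 arrays a group, the smallest p of an exact permutation test is 0.333, so none was run. The number of arrays limits precision, and the median standard error was 0.15. Where a group is below the background reference on all arrays, a fold is a bound against the higher of reference and measured level on each array. The fit was also run on simulated arrays with independent noise, which lack the shared shifts that real arrays can have, and nothing here rests on that run.

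The genes, lists and motifs were chosen with earlier results of these data known. All 12 collagen probe sets are named, with up to 3 list genes per comparison by largest difference among those past the threshold without overlap, and the 5 nearest profiles. Genes named to spell out a count of 5 or fewer, and Furin, Ptprs, Col9a2, Col19a1 and Col17a1, were chosen after their values were seen. Outlying arrays cannot be tested with 2 in a group. The alternatives were quantile normalisation, median centring, dim probe sets left out, moderation without the trend or robust, an offset of 16, the brightest probe set per gene, only the compared groups, the replicate number as a block, and each array left out. A block with crossed numbers was added after the data were seen.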

Additional observations from a re-analysis of the deposited data

Results flagged for a closer look

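Col25a1 1438540_at lay on opposite sides of Thy1 in the GFP lines, on every array, at 1.72 as Hb9 minus Thy1 and at -2.30 as Drd4 minus Thy1. On the measured values Col24a1 1453418_at stood at -0.14 in Hb9 and 2.91 in Drd4, and Col22a1 1453084_s_at at -0.28 in Hb9 and 0.51 in Drd4. For both, the Hb9 and Thy1 arrays are below the background reference, so Hb9 has no order against Thy1 and only the Drd4 side is measured. The Col22a1 difference of 0.51 did not pass the threshold. The difference between the effects equals Hb9 minus Drd4, which was 4.03 for Col25a1, -3.05 for Col24a1 and -0.79 for Col22a1. All 3 passed the threshold in limma, and they are a description, since the genes were picked on these comparisons.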

How the results depend on the processing

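Of the 16 alternatives, those that change only the error or the set of probe sets tested cannot move a difference. The ranges below therefore come from scaling, the offset and left-out arrays. Col25a1 1438540_at ranged from 1.45 to 1.99 as Hb9 minus Thy1 (below the threshold without Hb9 replicate 2), from -2.73 to -1.88 as Drd4 minus Thy1 and from 3.60 to 4.46 as Hb9 minus Drd4. Col24a1 ranged from 2.27 to 2.97 as Drd4 minus Thy1 and from -3.11 to -2.35 as Hb9 minus Drd4. Col9a1 1428571_at ranged from 0.66 to 1.04 as Hb9 minus Thy1 and fell below the threshold without Hb9 replicate 1, Thy1 replicate 1 or Thy1 replicate 2. Col22a1 1453084_s_at ranged from -0.92 to -0.53 as Hb9 minus Drd4 and did so without Hb9 replicate 2.

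Over all probe sets, 2714 differed between Hb9 and Thy1, 1697 between Drd4 and Thy1 and 2922 between Hb9 and Drd4. With the brightest probe set of each gene, which tests 18193 genes, the counts were 1220, 995 and 1113. With 1 array left out they ran from 778 to 3332, from 1121 to 1533 and from 1067 to 3000. The replicate number as a block gave 2665, 1685 and 2851. Between groups, the correlation of the deviations of same-numbered arrays was -0.19 for Hb9 and Drd4, -0.14 for Hb9 and Thy1 and 0.32 for Drd4 and Thy1, and the labels do not say what a number marks. A block with the Hb9 numbers crossed gave 5869, 2791 and 5603. The cause of these shifts was not tested. Signal near the background reference limits what can be said of Col23a1, Col13a1 and Col22a1.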
